A study of Mus musculus with 6 samples.

Results

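The genes described here are the Fc gamma receptors Fcgr1, Fcgr2b, Fcgr3 and Fcgr4, the adaptor chains Fcer1g and Tyrobp, and the kinase Syk. These 7 genes were chosen by their function, with earlier results of these data known, and no measured value entered the choice rule. Each was found as 1 of the 56750 rows of the deposited expression table through its Ensembl identifier. All 7 passed the filter on low values, which asked for 1 TPM or more in 3 or more of the 6 libraries. TPM, a length-corrected share of all transcripts in a library, gives levels per transcript length, so levels of different genes can be compared within a library.

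The libraries were made from RNA of cells sorted from C57BL/6 bone marrow as Lin- Sca1+ cKit+ (LSK) cells, the surface phenotype of blood stem cells and early progenitors. One group, called DIC, came from animals made colitic with the irritant dextran sulfate sodium (DSS), given at 2.5% for 5 days. The other group is labelled control, with no further treatment stated, and neither age nor sex is given. Each group had 3 mice and 3 libraries, named here DIC 1, DIC 2 and DIC 3 and control 1, control 2 and control 4 after the table's columns. The question was whether intestinal inflammation changed these genes in marrow progenitors, and a p-value here reflects the spread among these 6 libraries, since nothing else describes the replication.

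Fc gamma receptors bind the constant part of IgG and report antibody-coated targets to the cell. The activating receptors CD64 (Fcgr1), CD16 (Fcgr3) and Fc gamma RIV (Fcgr4) depend on the FcR gamma chain, encoded by Fcer1g, whose cytoplasmic tail carries an immunoreceptor tyrosine-based activation motif (ITAM). Tyrobp encodes DAP12, a like ITAM chain that serves other myeloid and NK cell receptors. Src-family kinases phosphorylate the ITAM, Syk docks on it and passes the signal on, and Fcgr2b, the inhibitory receptor, opposes it through an inhibitory motif and the phosphatase SHIP1 (Inpp5d). In the marrow these genes belong mostly to granulocyte, monocyte, mast cell and basophil lineages, and Fcgr2b and Syk also to B cells. Fcgr2b and Fcgr3 are bound together by the CD16/32 antibody used to divide myeloid progenitors.

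The promoter windows of the 4 receptors are shown because their levels differed widely within every library, as given below. Each window is 300 bases long, 250 before and 50 after the transcript start, from RefSeq on GRCm38.p6, an earlier build than the GRCm39 of the submitters' notes. Capitals mark matches on either strand to GAGGAA, the purine-rich core that the myeloid factor PU.1 binds, and to TTCNNNGAA, the palindrome that STAT dimers bind. The windows lie at chr3:96293920-96294219 (minus strand) for Fcgr1, chr1:171059354-171059653 (minus) for Fcgr3, chr1:171018676-171018975 (plus) for Fcgr4 and chr1:170976022-170976321 (minus) for Fcgr2b.
Fcgr1: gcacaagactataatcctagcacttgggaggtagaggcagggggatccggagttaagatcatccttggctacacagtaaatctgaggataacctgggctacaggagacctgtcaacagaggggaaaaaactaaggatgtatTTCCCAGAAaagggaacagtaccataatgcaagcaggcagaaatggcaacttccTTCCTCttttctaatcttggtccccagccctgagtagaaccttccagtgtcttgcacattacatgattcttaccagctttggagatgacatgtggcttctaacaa
Fcgr3: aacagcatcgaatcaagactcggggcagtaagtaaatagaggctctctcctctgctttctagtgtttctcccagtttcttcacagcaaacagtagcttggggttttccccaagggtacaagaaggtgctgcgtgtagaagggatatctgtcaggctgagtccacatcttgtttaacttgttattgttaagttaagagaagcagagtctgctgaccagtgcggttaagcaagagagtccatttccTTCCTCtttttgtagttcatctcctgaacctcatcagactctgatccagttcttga
Fcgr4: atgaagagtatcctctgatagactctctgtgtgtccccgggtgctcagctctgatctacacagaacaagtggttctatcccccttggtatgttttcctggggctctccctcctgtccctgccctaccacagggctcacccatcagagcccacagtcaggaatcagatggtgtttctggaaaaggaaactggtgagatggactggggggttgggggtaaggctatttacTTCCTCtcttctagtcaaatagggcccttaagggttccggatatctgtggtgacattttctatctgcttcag
Fcgr2b: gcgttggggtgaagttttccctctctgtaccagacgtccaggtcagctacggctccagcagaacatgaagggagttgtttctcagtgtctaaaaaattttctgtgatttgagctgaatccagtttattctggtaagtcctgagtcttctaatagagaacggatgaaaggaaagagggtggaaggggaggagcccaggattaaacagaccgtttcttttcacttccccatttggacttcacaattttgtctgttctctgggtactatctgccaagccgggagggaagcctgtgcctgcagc
The letters GAGGAA, read as TTCCTC on the printed strand, began 55 bases before the start in Fcgr1, 6 before it in Fcgr3 (the first of 2 overlapping windows) and 22 before it in Fcgr4. They did not occur in the Fcgr2b window. TTCNNNGAA occurred in Fcgr1 alone of these 4, 109 bases before the start, and the matches did not overlap. Of 32851 promoter windows of the same length in the table, 28.3% held GAGGAA and 8.3% held TTCNNNGAA, so the first is common. The table held windows for 6 of the 7 genes, and a match describes letters, not a bound site.

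The libraries differed in the levels of granulocyte marker transcripts, which stand beside every value below. A list of 16 neutrophil markers took 15.4% to 22.5% of all TPM in DIC. Its share was 12.5% in control 2, 4.17% in control 1 and 2.98% in control 4. S100a8 and S100a9 made up most of that sum in every library (105475.55 and 69749.02 of 225080 TPM in DIC 1), so it hides the other markers. The genes of the sort were present in all libraries, Kit at 54.2 to 99.52 TPM and Ly6a, which encodes Sca1, at 15.5 to 49.91 TPM. The most abundant granulocyte markers lay far above both, S100a8 at 13282.77 TPM or more, while Cxcr2, Il1b and Stfa2l1 lay below Kit in every library. The 15 monocyte and macrophage markers summed to 0.509% to 0.541% of TPM in DIC and 0.476% to 0.761% in control. Ly6c2 made up most of that sum in every library (4993.67 of 5413 TPM in DIC 1), so it hides the other markers. Of the 14 tested, 7 had positive and 7 negative fold changes. The 11 mast cell and basophil markers summed to 0.168% to 0.187% in DIC and 0.236% to 0.483% in control, with the mast cell proteases Mcpt4 and Tpsb2 listed at 0 everywhere. In DIC most of that sum was Ms4a3 (1252.55 of 1678 TPM in DIC 1). Prss34 averaged 170 TPM in DIC against 1030 in control, and Mcpt8 125 against 636. Of 8 tested markers of this list, 6 had negative and 2 positive fold changes. The 10 erythroid markers summed to 0.0643% to 0.187% in DIC and 0.049% to 0.0704% in control, and the 10 dendritic cell markers to 0.0113% to 0.0136% and 0.021% to 0.035%. In such bulk samples fewer cells of a type and less RNA per cell cannot be told apart.

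No member passed the test between colitis and control, while the adaptors and Fcgr3 were among the abundant transcripts of every library. In all 6 libraries the order of levels was Tyrobp, Fcer1g, Fcgr3, Fcgr2b, Syk, Fcgr4 and Fcgr1. The largest positive fold change belonged to Fcgr4, whose mean was 16.9 ± 10.3 TPM in DIC against 7.54 ± 2.92 TPM in control (SD over 3 libraries), and the next to Syk. Of the 7 genes, 0 had an adjusted p under 0.05 by limma and 1, Syk, an unadjusted p under 0.05, where 0.0593% of 13496 tested genes passed the adjusted threshold (0.037% higher and 0.0222% lower in DIC). At an unadjusted p under 0.05, 6.43% of all tested genes were higher and 13.8% lower. The adjusted calls over all genes numbered 5 higher and 3 lower, and 5 and 1 after quantile normalization.

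Neighbours in the order of levels were far apart except at the lower end. The lowest Tyrobp value, 1184.96 TPM, lay above the highest Fcer1g value, 924.66, and the lowest Fcer1g value, 581.26, above the highest Fcgr3 value, 326.56. Fcgr3 in turn stayed above Fcgr2b (lowest 236.62 against highest 113.63) and Fcgr2b above Syk (74.51 against 43.64). The ranges of Syk and Fcgr4 overlapped across libraries, since Syk was at 20.72 TPM in control 1 and Fcgr4 at 28.17 in DIC 1. Among tested genes Tyrobp ranked at percentiles 99.3 to 99.7 and Fcgr1 at 2.6 to 9.7.

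**Figure D1:**
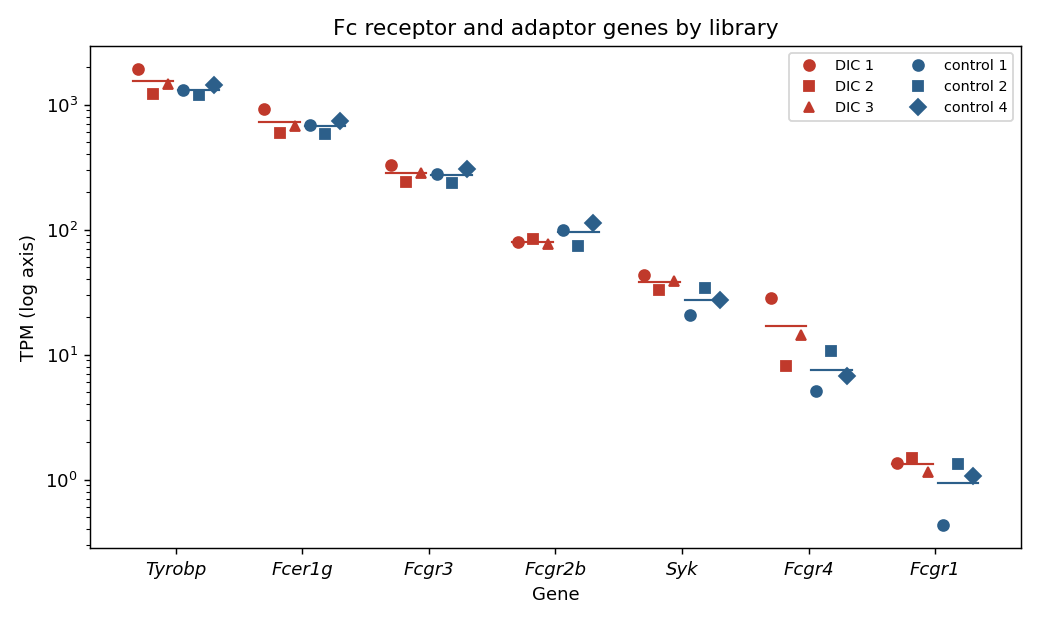
TPM of the 7 genes (log axis) in each of the 3 DIC libraries (red) and 3 control libraries (blue), with group means as lines. The order of the genes is the same in every library, and for each gene the 2 groups overlap.

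Among the activating receptors, Fcgr3, the low-affinity IgG receptor, was the main one. It measured 326.56, 241.53 and 286.2 TPM in DIC 1, 2 and 3 and 277.78, 236.62 and 306.68 TPM in controls 1, 2 and 4. The groups covered nearly the same range, with DIC 2 and control 2 lowest. Between groups its log2 fold change was 0.05 ± 0.16 (SE) with a 95% interval of -0.32 to 0.43 (limma adjusted p = 0.868). Its sign turned to -0.05 without DIC 1 and also without control 2, and it was 0.32 after quantile normalization, so no direction can be read.

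Fcgr4, a receptor for IgG2 subclasses on neutrophils and monocytes, varied most. It was at 28.17, 8.09 and 14.44 TPM in DIC 1, 2 and 3 and at 5.07, 10.77 and 6.79 TPM in controls 1, 2 and 4. DIC 1 and DIC 3 lay above all controls, and DIC 2 lay below control 2. Within DIC the highest library was 3.48 times the lowest, against 2.12 times within control. The log2 fold change was 0.96 ± 0.44 with an interval of -0.08 to 2.0 (limma adjusted p = 0.271). It was 0.53 without DIC 1 and 1.22 without control 2, with limma adjusted p of 0.587 and 0.145.

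The libraries fell in the same order for Fcgr4 as for Cxcr2 and Retnlg, a chemokine receptor and a secreted protein of late neutrophils. Cxcr2 was at 87.02, 6.95 and 30.36 TPM in DIC and 2.28, 9.13 and 2.59 TPM in controls 1, 2 and 4. These are 2 of the 16 neutrophil markers. The part of neutrophil transcripts in the Fcgr4 difference was not tested.

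**Figure D2:**
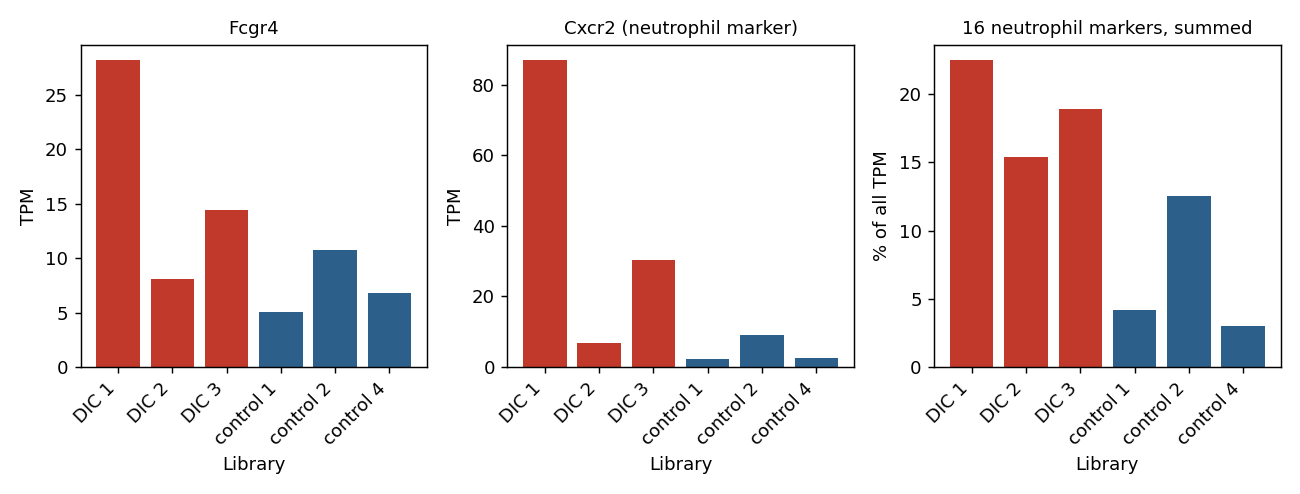
Bars give, for each library, the TPM of Fcgr4 (left), the TPM of Cxcr2 (middle) and the share of all TPM held by 16 neutrophil markers (right), with DIC in red and control in blue. DIC 1 is highest in all 3 panels, and control 2 exceeds DIC 2 for Fcgr4 and Cxcr2 but not for the summed markers.

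Fcgr1, the high-affinity IgG receptor of monocytes and macrophages and a known interferon-gamma target, was near the filter. It was at 1.37, 1.49 and 1.14 TPM in DIC and 0.43, 1.33 and 1.07 TPM in controls 1, 2 and 4. Only control 1 stood apart, and DIC 3 lay below control 2. For Fcgr1 the log2 fold change was 0.29 ± 0.26 with an interval of -0.32 to 0.9 (limma adjusted p = 0.546). At this level the added 1 TPM of the log scale shrinks any change, and the value was 0.57 with a pseudocount of 0.1. Without control 1 it was 0.08 (limma adjusted p = 0.88).

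Fcgr2b, the inhibitory receptor, was the member with a negative fold change. It measured 80.2, 83.43 and 76.08 TPM in DIC and 98.82, 74.51 and 113.63 TPM in controls 1, 2 and 4. DIC libraries were close together, while control 2 lay below and the other 2 controls above all of them. The log2 fold change was -0.24 ± 0.17 with an interval of -0.63 to 0.16 (limma adjusted p = 0.446). Without control 2 it was -0.40 (limma adjusted p = 0.0708) and without control 4 -0.10 (limma adjusted p = 0.789). Quantile normalization gave -0.06, so the size rests on single controls and on the scaling.

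Fcgr2b and Fcgr3 have near-identical extracellular parts, so reads can be divided between them. In transcripts of the GRCm38 annotation, 12.8% of the 50-base stretches of the longest Fcgr3 transcript also occurred in Fcgr2b, and 4.75% of those of Fcgr2b in Fcgr3. With any other gene, Fcgr2b shared 12.5% of its stretches, spread over 145 genes and led by the predicted gene Gm47409 at 6.9%. Fcgr1, Fcgr4, Fcer1g, Tyrobp and Syk shared 0 such stretches with another gene. Values of the first pair are therefore less certain than those of the other 5 genes.

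The balance of activating to inhibitory receptor is a ratio within a library, so the scaling of TPM leaves it nearly unchanged. Fcgr3 was 4.07, 2.90 and 3.76 times Fcgr2b in DIC 1, 2 and 3, and 2.81, 3.18 and 2.70 times in controls 1, 2 and 4. DIC 1 and DIC 3 were above the controls, and DIC 2 fell among them. On the scale of log2 of TPM + 1 the Fcgr4 to Fcgr2b ratio averaged -2.34 ± 0.87 in DIC and -3.53 ± 0.74 in control (SD, n = 3), and again the groups overlapped. Fcgr3 made up 71.6% to 75.7% of the summed Fc gamma receptor TPM in every library, while the share of Fcgr4 ran from 1.33% in control 1 to 6.46% in DIC 1. These ratios were not tested.

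Fcer1g, the FcR gamma chain, was more abundant than all activating receptors together. It measured 924.66, 597.07 and 672.74 TPM in DIC and 683.8, 581.26 and 744.88 TPM in controls 1, 2 and 4. DIC 1 was highest, and the other DIC libraries lay within the control range. Its log2 fold change of 0.11 ± 0.20, with an interval of -0.36 to 0.57 (limma adjusted p = 0.781), became -0.07 without DIC 1 and 0.42 after quantile normalization. Its TPM was 2.23 to 2.60 times the sum of Fcgr1, Fcgr3 and Fcgr4 in DIC and 2.34 to 2.41 times in control.

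Tyrobp, the DAP12 gene, was also highest in DIC 1 and lowest in control 2. It measured 1935.44, 1219.73 and 1472.29 TPM in DIC and 1314.27, 1184.96 and 1428.61 TPM in controls 1, 2 and 4. DIC 1 and DIC 3 lay above the controls, DIC 2 below 2 of them. Tyrobp had a log2 fold change of 0.21 ± 0.20 with an interval of -0.26 to 0.69 (limma adjusted p = 0.569). Without DIC 1 it was 0.04 (limma adjusted p = 0.95), and after quantile normalization 0.45. Tyrobp was 2.04 to 2.19 times Fcer1g in DIC and 1.92 to 2.04 times in control. This was the only one of 7 ratios computed between members whose groups did not overlap, with DIC 2 and control 2 apart by less than the printed digits, and it was not tested.

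Syk, the kinase that docks on phosphorylated ITAMs, was at 43.64, 32.78 and 38.73 TPM in DIC and 20.72, 33.98 and 27.2 TPM in controls 1, 2 and 4. Control 2 lay just above DIC 2, and otherwise the DIC libraries were higher. The log2 fold change was 0.49 ± 0.20 with an interval of 0.01 to 0.97, an unadjusted p of 0.0449 and a limma adjusted p of 0.239. Without control 2 it was 0.66 (limma adjusted p = 0.0675) and without control 1 0.32 (limma adjusted p = 0.474). The libraries fell in the same order for Syk as for Fcgr4.

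**Figure D3:**
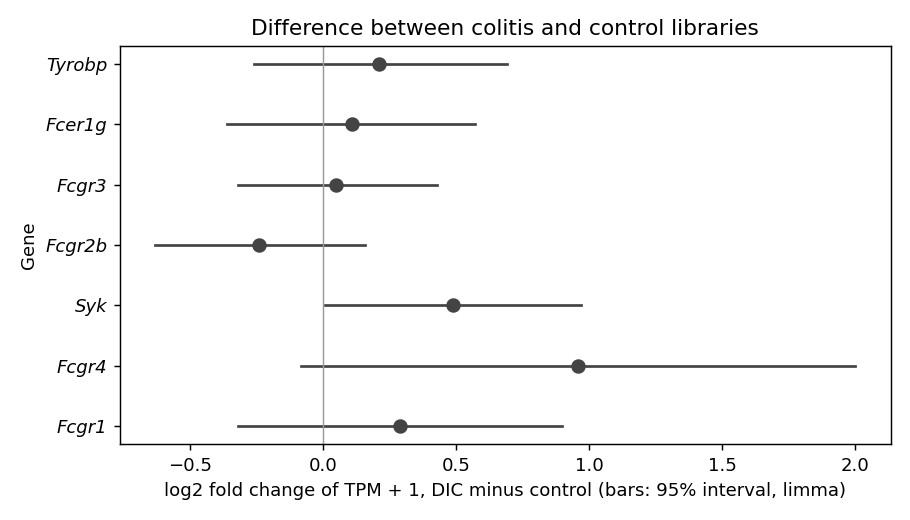
Points give the log2 fold change of TPM + 1 (DIC minus control) of each gene from limma and bars its 95% interval, 3 libraries against 3. The bars of 6 genes cross 0 and that of Syk begins at 0.01, before any adjustment for the number of genes tested.

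Across the 7 genes, 6 fold changes were positive, with a median of 0.21 against -0.08 over all tested genes, of which 41.5% were positive. For 0 of the 7 did the DIC libraries lie wholly above or wholly below the controls, where 7.08% of all tested genes lay wholly above and 18.4% wholly below. DIC 1, the library with the largest neutrophil share, had the highest value of 5 members. Control 2, the control with the largest neutrophil share, had the lowest value of 4 members, Fcgr3, Fcgr2b, Fcer1g and Tyrobp. The part of granulocyte transcripts in these values was not tested.

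Genes around the members, grouped in 5 lists of partners and pathway genes, had log2 fold changes from -1.76 to 2.39. Of 91 tested genes, 0 passed the adjusted threshold by limma and 33, in either direction, had an unadjusted p under 0.05. At that unadjusted level 6.43% of all tested genes were higher and 13.8% lower. DIC lay wholly above control for 21 of them (23.1%, against 7.08% of all tested genes) and wholly below for 12 (13.2%, against 18.4%). These lists were drawn up with earlier results of these libraries known, and their counts describe them without a test.

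**Figure D4:**
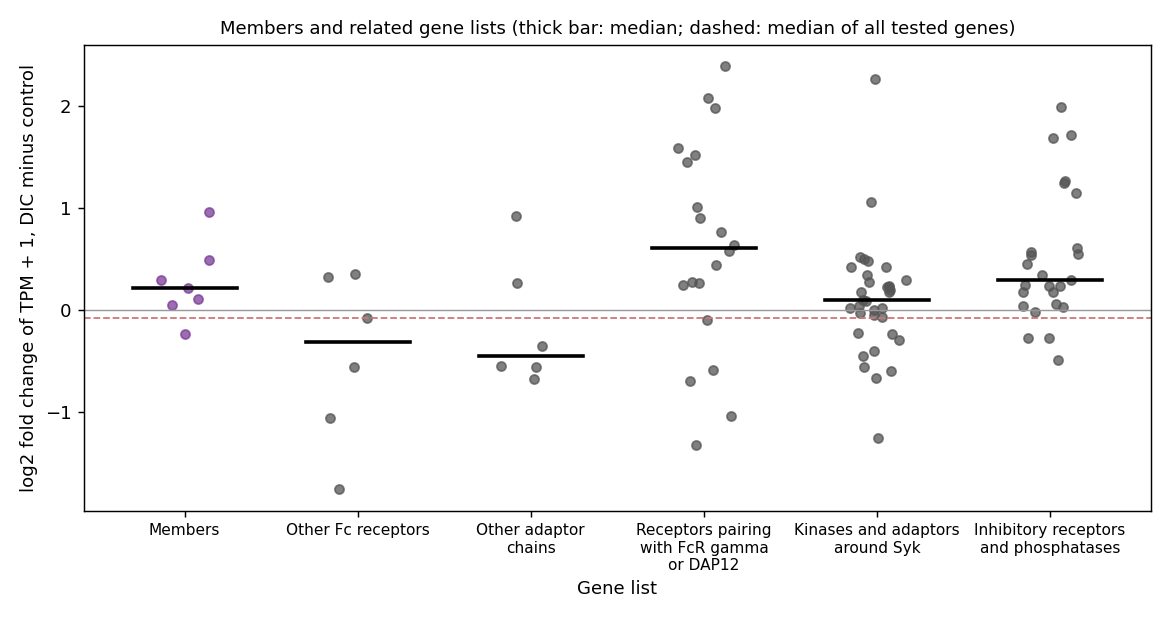
Each point is the log2 fold change of TPM + 1 (DIC minus control) of 1 tested gene, for the 7 members (purple) and 5 related lists (grey), with list medians as thick bars and the median of all tested genes, -0.08, dashed. The members lie between -0.24 and 0.96, while the receptors that pair with FcR gamma or DAP12 lie between -1.33 and 2.39.

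Receptors and integrin chains listed as pairing with FcR gamma or DAP12 had a median log2 fold change of 0.60, with 15 of 20 positive. Itgam, the CD11b integrin chain that works with Fc receptors in phagocytosis, measured 122 ± 46.1 TPM in DIC against 31.7 ± 23.1 TPM in the controls, a log2 fold change of 2.07 ± 0.49 (limma adjusted p = 0.212). Its DIC libraries ran from 81.91 to 172.24 TPM, above all controls, the highest of which was control 2 at 58.1. Cd300lf, a receptor that also carries inhibitory motifs, measured 58.0 ± 31.6 against 14.9 ± 10.5 TPM. Pilrb1, a DAP12-linked receptor, measured 69.0 ± 9.77 against 35.0 ± 12.5 (limma adjusted p = 0.212 for both). Without control 2, 7 genes of this list passed as higher and 1 as lower, against 3.93% and 8.45% of all tested genes. Control 2 had the largest neutrophil share of the controls, and leaving it out gave the most calls over all genes (530 higher, 1141 lower). Without DIC 1 and without control 4, 0 of all tested genes passed in either direction. The neutrophil share moved with the values of Itgam, Cd300lf and Pilrb1, and Itgam is itself abundant in neutrophils. The part of neutrophil transcripts was not tested.

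The kinases and adaptors around Syk had a median of 0.10, with 21 of 34 positive. Fgr, a Src-family kinase of myeloid cells, was higher in every DIC library than in any control. Its mean was 43.3 ± 19.3 TPM in DIC against 10.7 ± 10.7 in the controls, and its log2 fold change was 2.26 ± 0.66 (limma adjusted p = 0.212). Lyn, another kinase of that family, measured 66.9 ± 20.5 against 45.4 ± 8.16 TPM and its groups overlapped. Lat2, an adaptor of mast cells and B cells, lay the other way at 18.1 ± 4.56 against 47.6 ± 20.8 TPM (limma adjusted p = 0.212).

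The inhibitory receptors and phosphatases had a median of 0.29, with 21 of 25 positive. Pilra, Siglece and Ceacam1, receptors with inhibitory motifs, measured 52.1 ± 23.3, 33.7 ± 8.58 and 198 ± 35.8 TPM in DIC. Their control levels were 16.1 ± 10.7, 14.3 ± 6.98 and 91.5 ± 54.9 TPM, below every DIC library (limma adjusted p = 0.212 each). These receptors were named for having the lowest p of the list, while the phosphatase genes Ptpn6 and Inpp5d came from a fixed set. They therefore cannot show whether phosphatases differed less than receptors. The receptors Lair1 and Cd300a had log2 fold changes of 0.03 and -0.02, and the phosphatases Ptprc and Ptprj 0.54 and 0.55. Ptpn6, which encodes SHP-1, measured 234 ± 16.7 against 201 ± 42.1 TPM, and Inpp5d, the SHIP1 partner of Fcgr2b, 66.0 ± 6.88 against 59.6 ± 14.5, with overlapping groups for both. Without control 2, 5 genes of this list passed as higher and 0 as lower, against 3.93% and 8.45% of all tested genes. That omission gave the most calls over all genes, while without DIC 1 and without control 4, 0 of all tested genes passed.

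Of 6 tested Fc receptor genes outside the Fc gamma group, 4 had negative and 2 positive fold changes, and 0 passed the adjusted threshold. The most negative were the chains of the IgE receptor. Fcer1a, the IgE-binding chain that needs Fcer1g at the surface, was at 17.38, 20.68 and 16.35 TPM in DIC and 50.64, 39.29 and 129.08 TPM in controls 1, 2 and 4. Every DIC library lay below every control. The log2 fold change was -1.76 ± 0.41 (limma adjusted p = 0.212), and -2.11 without control 2 (limma adjusted p = 0.029). Leaving out control 2 gave the most calls over all genes. Without DIC 1 and without control 4, 0 of all tested genes passed. Ms4a2, its beta chain, measured 10.9 ± 3.00 against 24.5 ± 9.41 TPM (log2 fold change -1.06 ± 0.32, limma adjusted p = 0.212). Of 8 tested mast cell and basophil markers, 6 were also negative and 2 positive, as given above, and their part was not tested. Fcgrt, the neonatal Fc receptor, measured 3.60 ± 0.71 against 5.80 ± 1.01 TPM. Fcrl1 and Fcrla, Fc receptor-like genes of B cells, had log2 fold changes of 0.32 and 0.35 with overlapping groups. The list's median was -0.32 over 6 tested of 13 genes, 0.02 without a filter and -1.06 with a filter of 5 TPM.

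Among other adaptor chains, 6 of 8 were tested, 2 with positive and 4 with negative fold changes, and the median was -0.45. Cd79b, the ITAM chain of the B cell receptor, measured 40.0 ± 4.20 TPM in DIC against 66.3 ± 20.0 in control (limma adjusted p = 0.212). Cd247, the zeta chain of T and NK cell receptors, was at or below 1.03 TPM in DIC and between 1.21 and 1.56 in control. Of the tested B cell markers, a list that holds Cd79a and Cd79b themselves, 7 of 8 were negative (median -0.61). Ighm, the most abundant of them, was at -0.01 with overlapping groups. Of 11 T and NK cell markers 7 were tested, and 7 of 7 were negative (median -0.38), where 41.5% of all tested genes were positive. Nkg7 held most of that list's TPM in every library (1302.16 of 1318 TPM in DIC 1). The other tested markers were low, at 9.56 TPM or less. The part of these cell types in Cd79b and Cd247 was not tested. Nfam1, an ITAM receptor of myeloid and B cells, lay the other way at 105 ± 28.9 against 55.7 ± 19.9 TPM (limma adjusted p = 0.212).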

How the data were processed

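Expression was analysed in 6 libraries of sorted mouse marrow cells, 3 per group. The authors deposited TPM values for 56750 rows. Per the submitters' processing notes, reads were trimmed with fastp 0.19.5, aligned with HISAT2 2.1.0 and quantified with StringTie 2.1.2 on GRCm39. No source used here names the annotation release. TPM keeps no sequencing depth, so no counting interval could be given; 20474 to 22720 genes per library lay above 0. Columns 1 and 4 of the controls could be tied to the group but not to single samples. Symbols came from the GRCm38 annotation by identifier, for 52081 rows. The 13496 genes that reached 1 TPM in 3 or more libraries were fitted as log2(TPM + 1) by limma 3.58.1 (R 4.3.3, trended prior), group being the only factor. Tests were two-sided, adjusted by Benjamini-Hochberg over all tested genes, and called at 0.05. The log2 scale with 1 TPM added understates changes of low genes. The fit was tested on simulated data. An exact permutation test of 3 against 3 cannot go below 0.1 and was not run.

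The members and lists were chosen with earlier results of these data known. From each pathway list the rule named every gene past the threshold or else the 3 with the lowest p, plus a fixed set, of which 1 gene is not reported here; genes of like pattern were named by the smallest root mean squared difference between centred profiles. Alternatives covered the pseudocount, filter, scaling, fit, libraries left out and a replicate block.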

Additional observations from a re-analysis of the deposited data

How the results depend on the processing

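The count of members past the threshold was 0 by limma in all 16 alternatives. Over all genes, the counts with higher and lower values moved as follows from 5 and 3. With a pseudocount of 0.1 TPM 2 genes were higher, and with 0.5 TPM 8 were. Without a filter 0 were higher and 0 lower (1153 and 2088 at an unadjusted p under 0.05). Quantile normalization left 1 lower. With 1 library left out, the counts ran from 0 to 530 higher and from 0 to 1141 lower, the 0 without DIC 1 and without control 4 and the highest without control 2. The replicate block, which used the numbers in the column names and rests on the pairs numbered 1 and 2, gave 3 higher and 5 lower. The deviations of same-numbered libraries correlated at -0.068 and -0.102, and those of other pairs at -0.051 to 0.104. With 2 such pairs this cannot show whether same-numbered libraries share more than a number.

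Fold changes of Fcgr2b, Fcgr4, Syk, Tyrobp and Fcgr1 kept their sign in every alternative that gave a value. Fcgr1 had none with a filter of 5 TPM. With 1 library left out, Fcgr3 ran from -0.05 (without DIC 1 and without control 2) to 0.17, and Fcer1g from -0.07 (without DIC 1) to 0.24. Removing the neutrophil markers and rescaling moved the median of all genes from -0.083 to 0.101. On that scale Fcgr4 was at 1.16, Syk at 0.70 and Fcgr2b at -0.03. Of 80 list medians under alternatives, 72 moved by less than the spread between libraries. The other 8 were 0.02 and -1.06 (other Fc receptors) and -0.22 and -0.14 (other adaptor chains) without a filter and with 5 TPM, 0.29 (kinases) and -0.28 (adaptor chains) after removing the neutrophil markers, 0.57 (inhibitory) without control 2 and -0.27 (adaptor chains) without control 4. Depth is unknown, which limits Fcgr1 most.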

Other observations

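Fcgr2b, Fcgr4, Fcgr3 and Fcer1g lie close together on mouse chromosome 1, in the GRCm38.p6 gene order, among 13 other protein-coding genes from Fcrlb to B4galt3. Of these 13, 7 reached the filter and 0 passed the threshold by limma. DIC lay wholly below control for 5 of the 7 and wholly above for 1, where 18.4% and 7.08% of all tested genes did so. Among the 5 was Sdhc, a subunit of the respiratory chain, at 109 ± 7.35 against 140 ± 20.6 TPM (SD over 3 libraries). The gene above was B4galt3, a galactosyltransferase gene, at 35.5 ± 1.47 against 25.9 ± 4.61 TPM. The 4 members in between overlapped between the groups.

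Fcgr4 was the member whose values spread by an SD of at least 0.5 on the log2 scale over the 6 libraries, at 0.81. The genes with the most like profile were Lrrk2, a kinase gene expressed in neutrophils and monocytes, Aqp9, a glycerol channel gene, and Ccpg1. Their root mean squared differences from Fcgr4 over the 6 libraries were 0.11, 0.13 and 0.14 in log2 units. Lrrk2 was at 27.61, 6.99 and 14.25 TPM in DIC and 4.78, 8.56 and 6.70 TPM in controls 1, 2 and 4, and did not pass (limma adjusted p = 0.261).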
